A study of Mus musculus with 6 samples.

Results

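The 42 genes described here are mouse imprinted genes of 19 loci, chosen by symbol from a fixed list. Of these, 36 were found among the 30281 gene symbols of the RNA-Seq table. The other 6, *H19*, *Meg3*, *Rian*, *Mirg*, *Kcnq1ot1* and *Airn*, are all non-coding RNAs and were not analysed here. Of the 36, the list gives 21 as expressed from the paternal allele, 13 as expressed from the maternal allele and 2 (*Gnas* and *Inpp5f*) as mixed. The libraries do not separate the alleles, so every value is the sum over both.

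The 6 mouse libraries were made from poly(A) RNA, 1 for each condition. One pair came from mouse embryonic fibroblasts (MEFs) with the genotype labels Tsc2+/+ p53-/- and Tsc2-/- p53-/-, given no rapamycin. The other 4 came from a pair of kidney epithelial lines with the genotype label Tsc2-null, MKOC and TJ, of which TJ was derived from a secondary tumor in C57BL6 mice. Each kidney line was sequenced untreated and after 100 nM rapamycin for 18 hours, and the protocol for all samples names a serum-free medium. The study asked which transcripts differ when *Tsc2* is lost, and the rapamycin pairs ask which respond to inhibition of mTORC1 in cells labelled as null for it. Each condition is 1 culture, and nothing in the labels says how many clones or animals stand behind it.

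Imprinted genes are expressed mostly or only from the allele of 1 parent. For most of them this is set by DNA methylation laid down in the egg or sperm at imprinting control regions. They lie in clusters in which protein-coding genes of opposite parental expression share such a region, often with a long non-coding RNA. Many act in growth: *Igf2* is a fetal growth factor, *Igf2r* binds IGF2 and delivers it to lysosomes, and *Cdkn1c* and *Phlda2* restrain growth. A well-known group of imprinted genes with *Plagl1* and *Dlk1* is high in embryonic tissue and is turned down after birth.

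The libraries held between 22887020 and 37505004 estimated counts. *Tsc2* itself, which encodes tuberin, was at 22.6 TPM (counts scaled for transcript length and library size) in the library labelled Tsc2+/+ and 10.5 TPM in the library labelled Tsc2-/-. In the 4 kidney libraries labelled Tsc2-null it was at 49.1 TPM in MKOC untreated and 19.5 TPM in MKOC rapamycin. In TJ it was at 44.0 TPM untreated and 19.1 TPM with rapamycin. A sum over transcripts does not show whether the deleted exons are covered, so all directions below rest on the labels. *Trp53*, the gene for p53, was at 26.3 and 28.5 TPM in the MEF libraries labelled Tsc2+/+ and Tsc2-/-, both also labelled p53-/-, and the same limit holds for it. Of 8 fibroblast markers, 7 reached 1 TPM in the library labelled Tsc2+/+ (*Thy1* was at 0) and 8 in the library labelled Tsc2-/-. In the kidney libraries, 4 of 7 epithelial markers and 4 of 5 renal epithelial markers reached 1 TPM, among them *Cdh1*, *Krt8*, *Pax8* and *Cdh16*. *Cldn7* and *Lhx1* were at 0 in all 4 kidney libraries and *Epcam* was at 0.0269 TPM or less. Of the 8 fibroblast markers, 2 or 3 reached 1 TPM in each kidney library, among them *Vim* at 3609 to 7523 TPM and *Fn1* at 12.9 to 37.4 TPM. Of 7 mesothelial markers, 1 did, *Msln* at 69.5 to 150.4 TPM.

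Of the 36 genes, 28 reached 1 TPM in at least 1 library and 8 did not. The number at 1 TPM or more was 19 in the MEF library labelled Tsc2+/+, 25 in the library labelled Tsc2-/-, 18 in MKOC untreated, 18 in MKOC rapamycin, 16 in TJ untreated and 18 in TJ rapamycin. The 8 low genes were *Usp29*, *Asb4*, *Rtl1*, *Dio3*, *Ndn*, *Magel2*, *Ascl2* and *Rasgrf1*, and the highest single value among them was 0.921 TPM (*Asb4* in the library labelled Tsc2+/+). *Dio3*, *Ndn* and *Ascl2* had 0 counts in all 4 kidney libraries, and in no library did *Rtl1* exceed 4.50 counts. *Gnas*, which encodes the stimulatory G protein alpha subunit, was the highest gene of the list in all 6 libraries, at 563 and 696 TPM in the MEFs and at 999 to 1225 TPM in the kidney lines.

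**Figure D1:**
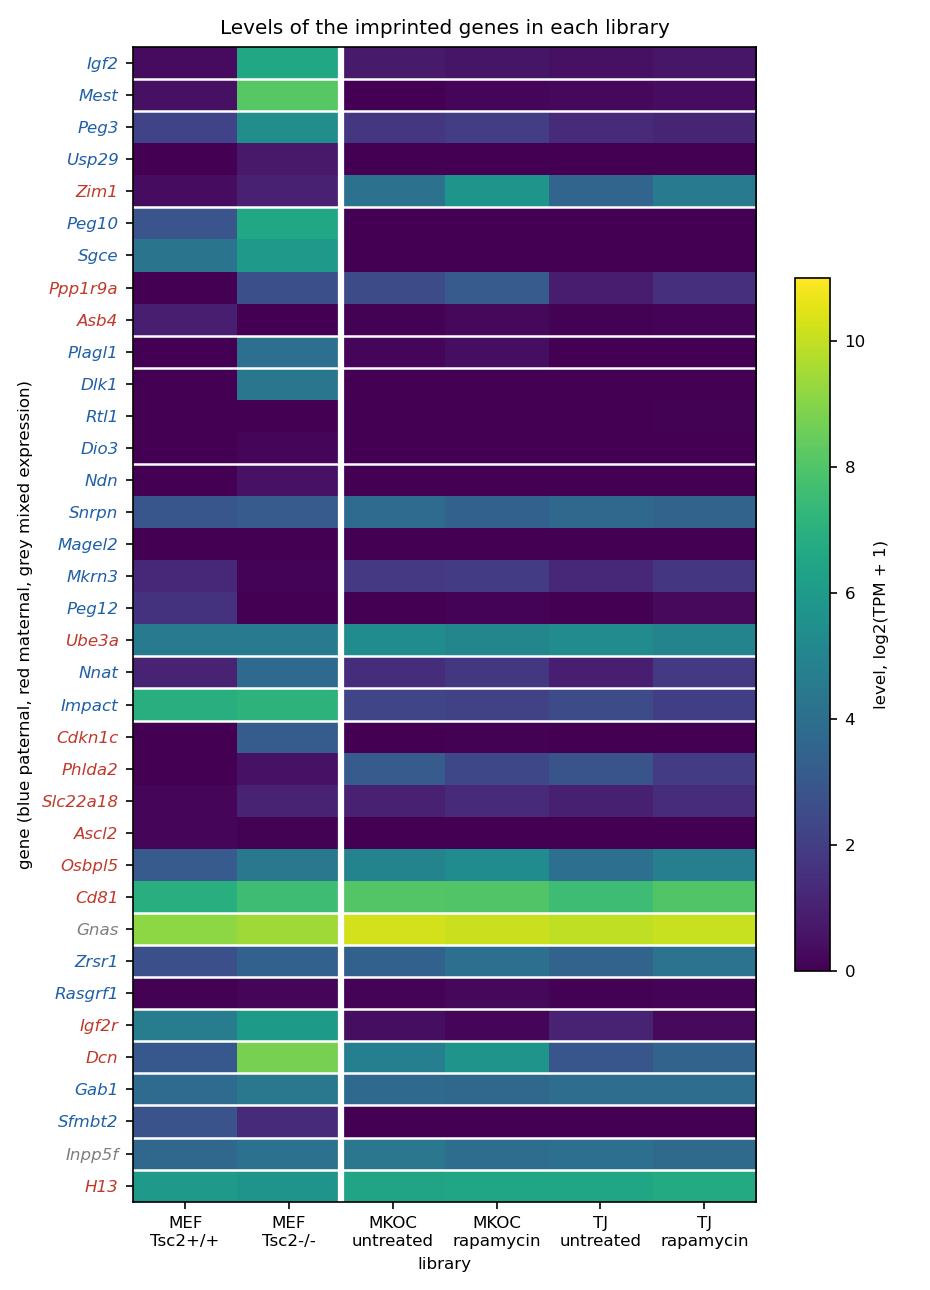
Level of each of the 36 genes, as log2(TPM + 1), in the 6 libraries. Rows are grouped by locus, with white lines between loci, and gene names are blue for paternal, red for maternal and grey for mixed expression. *Igf2*, *Mest*, *Dlk1* and *Plagl1* are bright in 1 of the 6 columns, the MEF library labelled Tsc2-/-, whereas *Gnas* is bright in all of them.

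Promoters of 5 genes are shown, 4 that were at least 8-fold higher in the MEF library labelled Tsc2-/- and *Zim1*, which rose with rapamycin. They were taken from RefSeq (build GRCm38.p6) as the 300-base window whose start site is nearest to the start of the gene's most abundant transcript. Each is written 5′ to 3′ on the strand of the gene, and capitals mark matches to TGCCGC on either strand (as TGCCGC or GCGGCA), the motif that the imprint-protecting factor ZFP57 is known to bind when it is methylated.
Mest (chr6:30737800-30738099, plus strand): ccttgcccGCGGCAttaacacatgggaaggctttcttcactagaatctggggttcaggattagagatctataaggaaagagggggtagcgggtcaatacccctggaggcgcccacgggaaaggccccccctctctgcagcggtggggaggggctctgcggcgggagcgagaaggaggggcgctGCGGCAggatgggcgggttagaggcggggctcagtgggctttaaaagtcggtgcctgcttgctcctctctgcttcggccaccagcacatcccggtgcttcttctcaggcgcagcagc
Plagl1 (chr10:13090582-13090881, plus strand): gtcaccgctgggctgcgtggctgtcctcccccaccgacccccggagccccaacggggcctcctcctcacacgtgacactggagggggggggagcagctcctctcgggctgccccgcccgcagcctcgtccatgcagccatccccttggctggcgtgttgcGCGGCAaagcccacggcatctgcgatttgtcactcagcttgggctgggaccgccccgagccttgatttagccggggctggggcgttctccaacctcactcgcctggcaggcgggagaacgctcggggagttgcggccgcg
Zim1 (chr7:6696383-6696682, minus strand): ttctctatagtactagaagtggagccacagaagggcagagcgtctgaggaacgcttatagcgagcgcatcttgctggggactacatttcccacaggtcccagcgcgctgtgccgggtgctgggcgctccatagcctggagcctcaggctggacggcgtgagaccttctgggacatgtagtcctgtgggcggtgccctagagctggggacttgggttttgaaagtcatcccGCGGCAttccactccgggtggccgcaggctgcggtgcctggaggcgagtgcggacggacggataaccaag
Peg3 (chr7:6730370-6730669, minus strand): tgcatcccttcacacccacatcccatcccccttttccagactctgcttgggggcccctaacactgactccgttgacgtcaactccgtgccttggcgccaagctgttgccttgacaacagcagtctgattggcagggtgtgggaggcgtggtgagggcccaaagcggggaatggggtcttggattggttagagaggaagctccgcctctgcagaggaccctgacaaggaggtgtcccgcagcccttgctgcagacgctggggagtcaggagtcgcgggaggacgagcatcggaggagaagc
Igf2 (chr7:142657447-142657746, minus strand): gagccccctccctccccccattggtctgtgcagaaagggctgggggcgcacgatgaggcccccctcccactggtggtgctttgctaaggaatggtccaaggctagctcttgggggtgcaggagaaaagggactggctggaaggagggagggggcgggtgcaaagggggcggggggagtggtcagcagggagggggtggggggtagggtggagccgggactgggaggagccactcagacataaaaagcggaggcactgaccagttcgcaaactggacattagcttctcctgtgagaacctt

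The *Mest* window held 2 matches and the *Plagl1* and *Zim1* windows 1 each, and no match lay in the *Peg3* and *Igf2* windows shown. Over 35 listed genes with an entry, 9 of 53 windows (17.0%) held a match, and 11.6% of all 32851 promoter windows did. The 9 count *Mest* through a pair of overlapping windows with the same 2 matches. They also include another *Igf2* window, not shown, with 1 match. The median number of CpG dinucleotides was 15 in the windows of the listed genes and 7 in all windows. A match in these letters is a description of the sequence and says nothing of binding or methylation in these cells.

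The first comparison set the MEF library labelled Tsc2-/- against the library labelled Tsc2+/+. Of the list, 8 genes were at least 8-fold higher with 1 TPM added to both values, and 0 were at least 8-fold lower. They were *Mest*, *Igf2*, *Dcn*, *Dlk1*, *Plagl1*, *Peg10*, *Peg3* and *Cdkn1c*. Scaling to a median ratio of 1 ended the call for *Peg3* (log2 fold change 2.82) and *Cdkn1c* (2.85), and adding 5 TPM ended it for these 2, *Plagl1* and *Dlk1*. The 8 lie among 27 genes of the list with at least 1 TPM in 1 or both MEF libraries. Over all 12771 genes passing that filter, 3.77% were at least 8-fold apart, 3.24% higher and 0.525% lower in the library labelled Tsc2-/-. With 1 library per genotype there is no test, and intervals given for this comparison cover counting error only.

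By expressed allele, 6 of 15 paternally expressed genes and 2 of 10 maternally expressed genes were 8-fold higher. The median log2 fold change was 1.66 for the paternal genes, 1.07 for the maternal genes and 0.88 for the 27 genes together, beside 0.45 for all genes tested. The 2 libraries also differed in scale: the median TPM ratio over 7377 genes with at least 10 TPM in both libraries was 1.31, a log2 shift of 0.39. The mitochondrial transcript *mt-Atp8* alone took 17.5% of TPM in the library labelled Tsc2+/+ and 4.79% in the library labelled Tsc2-/-, and its part in the shift was not tested. Of the 27 genes, 23 had a positive and 4 a negative log2 fold change before that shift was taken off. A gene that passed the filter through 1 library alone had to differ, so these counts describe the genes that passed and not the list of 36.

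*Mest*, a paternally expressed gene for an alpha/beta hydrolase of mesoderm, was at 0.428 TPM in the library labelled Tsc2+/+ (18.3 estimated counts) and 281 TPM in the library labelled Tsc2-/- (9808 counts). The ratio of TPM was 656 with a 95% counting interval of 415 to 1107, and the fold with 1 TPM added was 197. Transcript ENSMUST00000163949, which starts at the promoter shown, held 98.9% of the *Mest* counts of the library labelled Tsc2-/-. In the 4 kidney libraries *Mest* had between 0 and 3.04 counts.

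*Igf2* was at 0.248 TPM in the library labelled Tsc2+/+ and 96.8 TPM in the library labelled Tsc2-/-, a fold of 78.4 with 1 TPM added. Among its 9 transcripts, 3 carried most of the counts of the library labelled Tsc2-/-. ENSMUST00000000033, from the promoter shown, held 73.0%, ENSMUST00000121128 held 12.98% and ENSMUST00000105936 held 12.4%, and these start at 3 different first exons. The 5.02 counts of *Igf2* in the library labelled Tsc2+/+ were assigned to none of the 3 transcripts. Of them, 2.52 were assigned to ENSMUST00000097936, which starts inside the promoter window shown. So few counts, split between overlapping transcripts, do not show which promoter was used. Its partner *Igf2r*, whose maternally expressed product removes IGF2, was also higher, at 23.7 and 62.8 TPM, a fold of 2.58 with 1 TPM added.

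*Plagl1*, a paternally expressed zinc-finger transcription factor, had 3 counts (0.0187 TPM) in the library labelled Tsc2+/+ and 731 counts (15.1 TPM) in the library labelled Tsc2-/-. The TPM ratio was 806, with a counting interval of 275 to 3917. *Dlk1*, which encodes a transmembrane protein related to Notch ligands, had 0 counts and 269 counts (18.9 TPM). A floor of 3 counts on its most abundant transcript would be 0.0630 TPM in the library labelled Tsc2+/+. Short transcripts raise the summed TPM of *Dlk1* (24.1 counts on 1 of 483 bases gave 5.16 TPM), so no lower bound of its fold is given. *Cdkn1c*, a maternally expressed inhibitor of cyclin-dependent kinases, had 0 and 217 counts (8.14 TPM), at least 146-fold higher by a floor of 3 counts. These genes were thus near or under the floor in 1 MEF library and well above it in the other.

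At the Peg10-Sgce locus, *Peg10* and *Sgce* are paternally expressed from start sites 102 bases apart on opposite strands. *Peg10*, a gene derived from a retrotransposon, was at 6.54 and 96.9 TPM, a fold of 12.98 with 1 TPM added. *Sgce*, which encodes epsilon-sarcoglycan, was at 17.8 and 58.5 TPM, a fold of 3.17. Further along the same locus *Ppp1r9a*, which encodes the actin-binding protein neurabin, had 1 count and 619 counts (5.46 TPM). The TPM ratio for *Ppp1r9a* was 1588 with an interval of 284 to 62825, and the fold with 1 TPM added, 6.44, fell short of 8. *Asb4* went the other way, from 90 counts (0.921 TPM) to 1 count, a ratio of 44.3 in favour of the library labelled Tsc2+/+ with an interval of 7.75 to 1768.

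*Peg3*, a paternally expressed zinc-finger gene, was at 3.70 and 42.04 TPM, a fold of 9.16 with 1 TPM added. Its maternally expressed neighbour *Zim1* was at 0.292 and 1.01 TPM. *Usp29*, which is transcribed away from *Peg3*, had 1 and 26 counts. *Dcn*, the gene for the matrix proteoglycan decorin and maternally expressed in placenta, was at 7.08 and 422 TPM, a fold of 52.4. *Nnat*, a paternally expressed gene for a small membrane proteolipid, was at 1.07 and 12.4 TPM, a fold of 6.47.

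The genes of the Snrpn-Ube3a locus, whose human counterpart is lost in Prader-Willi and Angelman syndromes, differed in direction. *Ndn*, the paternally expressed gene for necdin, had 0 counts in the library labelled Tsc2+/+ and 10 counts (0.439 TPM) in the library labelled Tsc2-/-, at least 6.73-fold higher by the floor of 3 counts. *Snrpn*, a spliceosomal protein gene, was at 6.60 and 7.90 TPM. *Ube3a*, an E3 ubiquitin ligase, was at 23.0 and 23.1 TPM. *Mkrn3*, a further ubiquitin ligase gene, had 106 counts (1.43 TPM) in the library labelled Tsc2+/+ and 3 counts in the library labelled Tsc2-/-, a TPM ratio of 17.4 with an interval of 5.80 to 85.8. *Peg12* had 162 counts (2.10 TPM) and 1 count, a ratio of 79.8 with an interval of 14.1 to 3171. Within 1 locus, therefore, a pair of paternally expressed genes was near its floor in the library labelled Tsc2-/-. By contrast, *Snrpn* and *Ube3a* differed by less than 1.2-fold in unscaled TPM. Scaling to a median ratio of 1 put *Ube3a* at a log2 fold change of -0.37. With 1 TPM added, neither *Mkrn3* nor *Peg12* reached 8-fold.

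The other genes that passed the filter did not reach 8-fold with 1 TPM added. In the Kcnq1ot1 locus, *Osbpl5*, an oxysterol-binding protein gene, was at 7.80 and 20.2 TPM, and *Cd81*, a tetraspanin gene, at 121 and 192 TPM. *Slc22a18*, a transporter gene of the same locus, had 5 and 12 counts, a TPM ratio of 7.71 with an interval of 2.53 to 27.9, and *Phlda2*, which did not pass the filter, 0 and 4 counts. Elsewhere, *Zrsr1*, an intronless splicing-factor gene, was at 5.36 and 9.73 TPM, *Gab1*, a docking protein gene of receptor tyrosine kinases, at 13.4 and 20.4 TPM, and *Inpp5f*, a phosphoinositide phosphatase gene, at 11.6 and 16.3 TPM. *Impact*, a regulator of the kinase GCN2, was at 123 and 137 TPM. *H13*, which encodes signal peptide peptidase, was at 59.2 and 50.5 TPM. *Sfmbt2*, a Polycomb group gene, was at 6.002 and 1.49 TPM, a ratio of 4.04 in favour of the library labelled Tsc2+/+ with a counting interval of 3.37 to 4.87. Under scaling to a median ratio of 1, *Snrpn*, *Ube3a*, *Impact* and *Gnas* turned from a positive to a negative log2 fold change, so no direction is given for these 4.

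**Figure D2:**
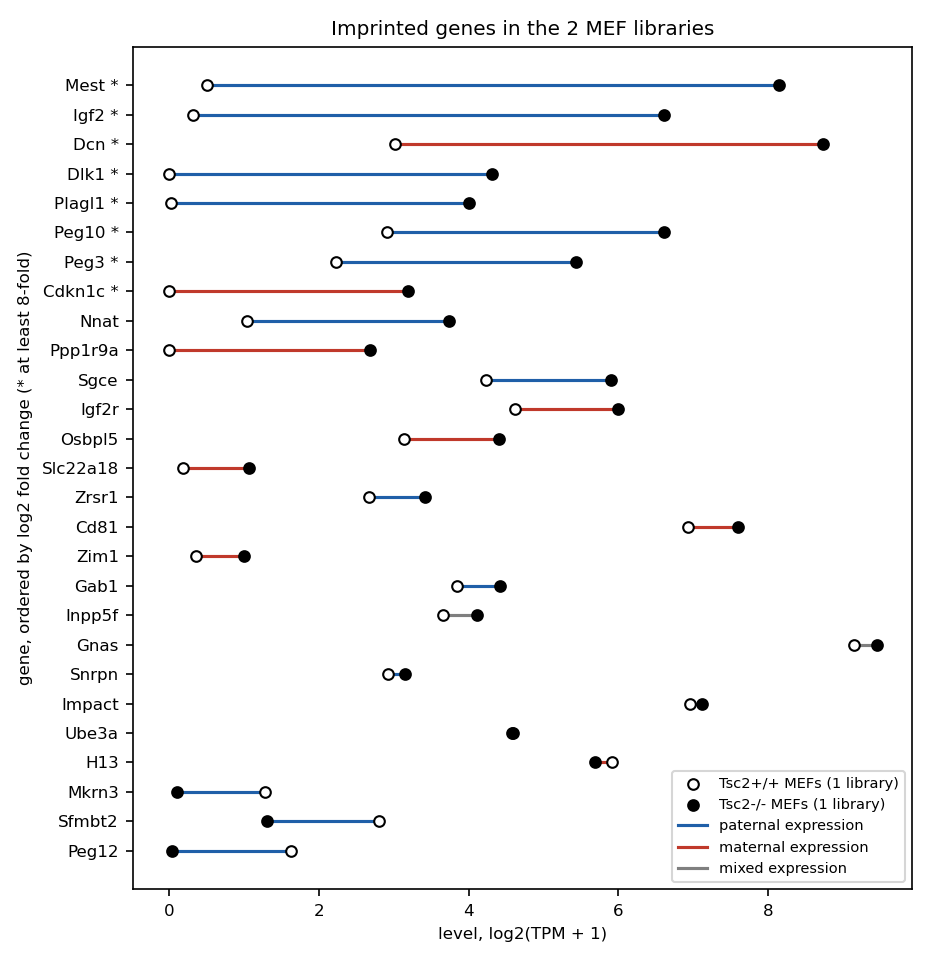
Level, as log2(TPM + 1), of the 27 genes with at least 1 TPM in 1 or both MEF libraries. Open circles are the library labelled Tsc2+/+ and filled circles the library labelled Tsc2-/-, each a single library without error bars, and the colour of the connecting line gives the expressed allele. The 8 starred genes were at least 8-fold higher in the library labelled Tsc2-/-, and *H13*, *Mkrn3*, *Sfmbt2* and *Peg12* at the bottom lie to the left of their open circles.

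The 2 MEF libraries also differed in markers of another cell type. Of 7 mesothelial markers, 6 were at least 8-fold higher in the library labelled Tsc2-/-, and their summed level was 2.66 TPM in the library labelled Tsc2+/+ and 478 TPM in the library labelled Tsc2-/-. *Upk3b*, *Upk1b*, *Gpm6a* and *Muc16* were at 0 in the former. The summed level of 7 epithelial markers was 0.169 and 77.3 TPM, carried by *Krt19* and *Krt18*, while *Cdh1* and *Epcam* stayed under 0.35 TPM in both. Their part in the values of the imprinted genes was not tested. In bulk RNA, fewer cells of a type and less RNA per cell cannot be told apart.

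Of the 8 genes, 6 (*Igf2*, *Mest*, *Peg10*, *Plagl1*, *Dlk1* and *Cdkn1c*) stayed under 1 TPM in all 4 kidney libraries. The same share was not computed over all genes at least 8-fold higher in the MEF library labelled Tsc2-/-. This count therefore describes the 8 genes and is not read as particular to imprinted genes. *Igf2* was at 0.717 TPM in MKOC untreated, 0.524 in MKOC rapamycin, 0.408 in TJ untreated and 0.574 in TJ rapamycin, on 11 to 26 counts. *Peg3* was at 2.37, 2.97, 1.58 and 1.21 TPM in the same order. *Dcn* was at 25.5, 50.3, 6.73 and 10.5 TPM, a range that includes the value of the library labelled Tsc2+/+.

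A description chosen after the values were seen asked which genes had all 4 kidney libraries at least 4-fold below, or above, both MEF libraries with 1 TPM added. Of the list, 4 genes lay below (*Peg10*, *Sgce*, *Impact* and *Igf2r*) and 1 above (*Zim1*). Over 13913 genes, 2.67% lay below and 2.65% above. *Sgce* had 0 counts in all 4 kidney libraries, where 3 counts would be 0.0985 to 0.127 TPM, and *Peg10*, its divergent partner, had 1 count in the sum of all 4. *Impact* was at 3.93, 3.45, 4.85 and 3.07 TPM, against 123 and 137 TPM in the MEFs. *Sfmbt2* also had 0 counts in all 4 kidney libraries, but its lower MEF value of 1.49 TPM kept it from the 4-fold limit. *Phlda2* was at 2.79 to 7.99 TPM in the kidney lines and at most 0.449 TPM in the MEFs. The kidney cells and the MEFs differ in cell type, genotype label (p53-/- is named for the MEFs only) and culture, which cannot be told apart.

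The second comparison set rapamycin against no treatment in the kidney lines, which serve as the 2 replicates. Of the list, 9 genes passed edgeR's quasi-likelihood test with the line as a covariate, 5 higher and 4 lower with rapamycin. Of the 36 genes, 20 were tested. The background was high: of 12952 genes tested, 34.9% passed, 17.5% higher and 17.4% lower, so that 9 of 20 is a share near that of all genes. Over the 20 genes the median change was 0.07 on the log2 scale, and over all genes it was 0.02. Of 10 maternally expressed genes tested, 4 rose and 3 fell, and of 8 paternally expressed genes 1 rose and 0 fell, with 5 of the 8 negative in sign.

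*Zim1*, the maternally expressed zinc-finger gene beside *Peg3*, was at 16.8 TPM in MKOC untreated and 50.3 TPM in MKOC rapamycin. In TJ cells it was at 10.98 TPM untreated and 22.05 TPM with rapamycin. Both treated libraries lay above both untreated libraries. The fitted log2 fold change was 1.28 (SE 0.14, n = 2 lines, edgeR adjusted p = 0.000169). The window printed above lies at its start, on the minus strand of chromosome 7. *Peg3* itself, from the same locus, was higher in treated MKOC and lower in treated TJ cells than in the untreated cells, and its fitted log2 fold change was -0.02 (SE 0.19, adjusted p = 0.941).

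*Ppp1r9a* was at 4.67 TPM in MKOC untreated and 7.82 TPM with rapamycin, and at 0.845 and 1.83 TPM in TJ. The TJ libraries stayed below the MKOC libraries, so the groups overlapped across lines although both lines rose. Its fitted log2 fold change was 1.19 (SE 0.17, edgeR adjusted p = 0.000674). The size depended on the unit, as limma on log2(TPM + 1) gave 0.63 for *Ppp1r9a*. *Dcn* also rose in both lines with overlap between the groups, at 25.5 and 50.3 TPM in MKOC and at 6.73 and 10.5 TPM in TJ. Its log2 fold change was 0.82 (SE 0.13, edgeR adjusted p = 0.00135). *Osbpl5* was at 30.4 and 39.5 TPM in MKOC and at 15.4 and 25.7 TPM in TJ, and rose by 0.46 (SE 0.11, adjusted p = 0.00914) on the log2 scale, again with overlap between the groups.

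*Zrsr1* was the paternally expressed gene that rose. It was at 9.71 and 15.4 TPM in MKOC and at 10.3 and 17.4 TPM in TJ, without overlap between treated and untreated libraries. Its log2 fold change was 0.71 (SE 0.12, edgeR adjusted p = 0.00161). *Zrsr1* is a retrogene with a close relative on the X chromosome, *Zrsr2*, and the sharing of reads between the pair was not tested. It lies in an intron of *Commd1*, a gene of the second imprinted list below, which moved the other way.

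The 4 genes that fell in this fit came from 4 loci, and none of the 4 passed under both DESeq2 and limma. *Phlda2*, the maternally expressed growth restrainer, was at 7.99 TPM in MKOC untreated and 4.23 TPM with rapamycin, and at 6.18 and 2.79 TPM in TJ, on 29 to 92 counts. Both treated libraries were below both untreated libraries, and the log2 fold change was -1.03 (SE 0.31, edgeR adjusted p = 0.0281). *Igf2r* had 55 and 19 counts in MKOC and 65 and 32 counts in TJ, a log2 fold change of -1.10 (SE 0.33, adjusted p = 0.0272). The *Phlda2* call was lost in DESeq2 (adjusted p = 0.164), and the *Igf2r* call in DESeq2 (adjusted p = 0.198) and in limma on log2(TPM + 1) (adjusted p = 0.0616). Its TPM, at 0.314, 0.140, 1.12 and 0.202, is inflated in TJ untreated by 1 count on a transcript of 261 bases, which alone gives 0.717 TPM.

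*Inpp5f* was at 19.6 and 14.1 TPM in MKOC and at 15.0 and 12.8 TPM in TJ, with a log2 fold change of -0.50 (SE 0.12, edgeR adjusted p = 0.00801). *Ube3a* was at 39.4 and 32.3 TPM in MKOC and at 38.6 and 30.4 TPM in TJ, with a log2 fold change of -0.32 (SE 0.10, adjusted p = 0.0287). For both genes the treated libraries lay below the untreated ones without overlap, by a narrow margin at *Inpp5f* (14.1 against 15.0 TPM). The *Inpp5f* call was lost in limma (adjusted p = 0.129), and the *Ube3a* call in limma (adjusted p = 0.0727) and DESeq2 (adjusted p = 0.0741).

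The 11 other tested genes did not pass. *Snrpn*, the paternal partner of *Ube3a* in its locus, was at 13.5 and 9.74 TPM in MKOC and at 11.9 and 10.2 TPM in TJ (log2 fold change -0.35, edgeR adjusted p = 0.0939). *Impact* had a log2 fold change of -0.43 (edgeR adjusted p = 0.105). *Igf2* had a log2 fold change of -0.65 (SE 0.40, edgeR adjusted p = 0.237) on 11 to 26 counts. Its direction depended on the unit: its TPM was lower with rapamycin in MKOC and higher in TJ, and limma on log2(TPM + 1) gave -0.01 (adjusted p = 0.982). *Nnat*, at 1.73 and 2.46 TPM in MKOC and at 0.887 and 2.70 TPM in TJ, had a log2 fold change of 0.65 (SE 0.39, edgeR adjusted p = 0.230), and passed in limma on log2(TPM + 1) (adjusted p = 0.0394). *Slc22a18* (0.979 to 1.64 TPM), *Mkrn3* (1.31 to 2.79 TPM) and *H13* (84.0 to 103 TPM) were positive in sign. The fitted value of *Cd81* (194 to 263 TPM) was positive too, with a ratio of depth-scaled counts of 0.996 in MKOC (interval 0.956 to 1.04) and 1.27 in TJ (1.21 to 1.32). *Gab1*, at 12.2 to 14.3 TPM, had a log2 fold change of -0.03 (SE 0.11). *Gnas*, whose treated library was lower in MKOC and higher in TJ, had -0.04 (SE 0.11).

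**Figure D3:**
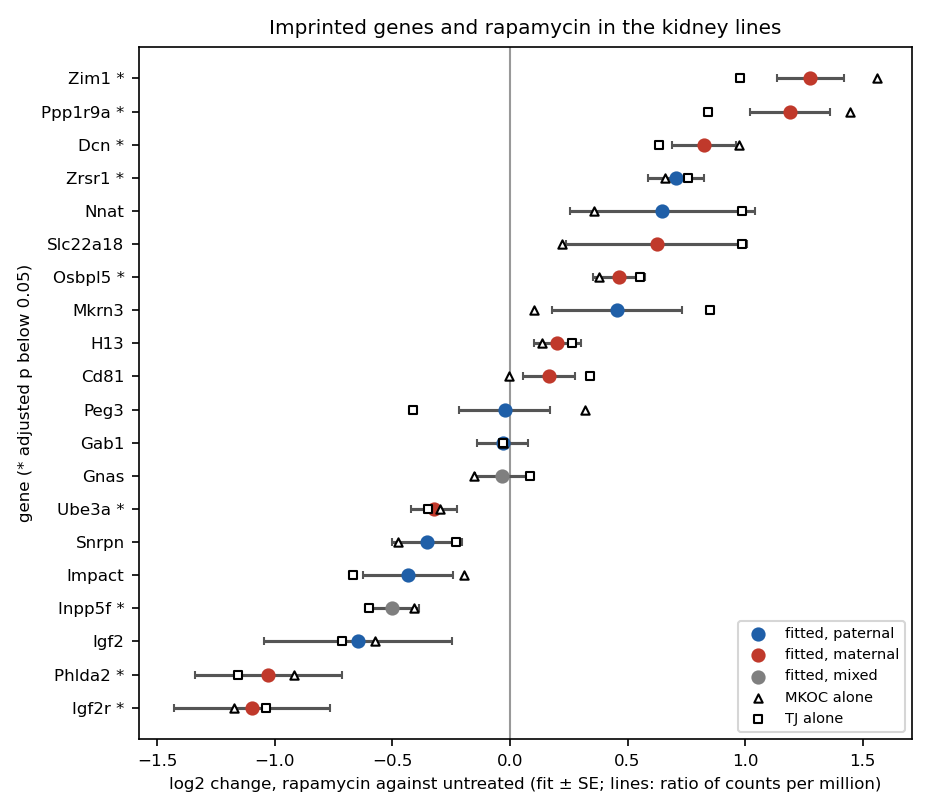
Log2 change with rapamycin for the 20 genes tested in the kidney lines. Coloured circles are the edgeR estimates with the line as a covariate and bars their standard errors, open triangles and squares are the ratio of depth-scaled counts in MKOC and TJ alone, and stars mark adjusted p under 0.05. *Zim1* is highest at 1.28 and *Igf2r* lowest at -1.10, and the 2 lines lie on opposite sides of 0 for *Peg3*, *Gnas* and, by a ratio of 0.996 in MKOC, *Cd81*.

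These calls rest on the line term: without it 1 of the 9, *Zrsr1*, passed, and 1275 of all genes passed in place of 4526. The 5 genes that rose passed in DESeq2 and limma too, where 23.6% and 28.0% of all genes passed.

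Transcripts of the mixed loci were compared. At *Gnas*, 99.6% to 99.8% of the counts in every library lay on the 4 transcripts that start at exon 1, the biallelic G protein alpha transcript in most tissues. The 12 transcripts of the upstream starts, among them the imprinted Nesp and XL forms, held at most 0.217% (in the library labelled Tsc2-/-), and the 5 that start at exon 1A at most 0.197%. At *Inpp5f*, the full-length transcript ENSMUST00000043138 held 62.5% to 78.7% of the counts. Of 6 transcripts with an internal start, 2 are protein-coding. One, ENSMUST00000151237, held 1.58% of the *Inpp5f* counts in MKOC untreated and 13.1% in MKOC rapamycin, and 4.62% and 27.7% in TJ. The other, ENSMUST00000118605, held 0.383% and 2.68% in MKOC and 0.498% and 0% in TJ. A retained-intron transcript with an internal start, ENSMUST00000142075, held 19.5% and 1.44% in MKOC and 12.5% and 3.85% in TJ. All 6 together held 25.8% and 20.6% in MKOC and 19.7% and 37.1% in TJ, so the total share differed in direction between the lines. A form of *Inpp5f* with an internal start is paternally expressed in mouse brain, but which of these transcripts it corresponds to was not examined. Each share comes from 1 library, with estimated counts split between overlapping transcripts, and was not tested.

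The third comparison set TJ against MKOC, 1 culture per line and treatment, with no test. No gene of the list was at least 4-fold apart in the same direction in both the untreated and the rapamycin pair, of 19 with at least 1 TPM in a kidney library, when 1 TPM was added to both values. That limit was rare among all genes: 0.121% of 12414 passed it, 0.0967% higher and 0.0242% lower in TJ. On that scale *Dcn* came nearest, with a difference (TJ minus MKOC, on the log2(TPM + 1) scale) of -1.78 untreated and -2.16 with rapamycin. *Ppp1r9a* had differences of -1.62 and -1.64. With nothing added, the *Ppp1r9a* ratio of TPM, MKOC over TJ, was 5.53 untreated and 4.28 with rapamycin, and that of *Dcn* was 3.79 and 4.80. *Ppp1r9a* thus passed 4-fold in both pairs by its TPM ratio, and also with 0.1 TPM added. With 1 TPM added, these 2 genes were the only ones of the 19 that were at least 2-fold apart in both pairs, beside 1.27% of all 12414 genes, of which 0.314% were lower in TJ. *Zim1* had differences of -0.57 untreated and -1.15 with rapamycin, *Osbpl5* -0.93 and -0.60, and *Peg3* -0.38 and -0.85.

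**Figure D4:**
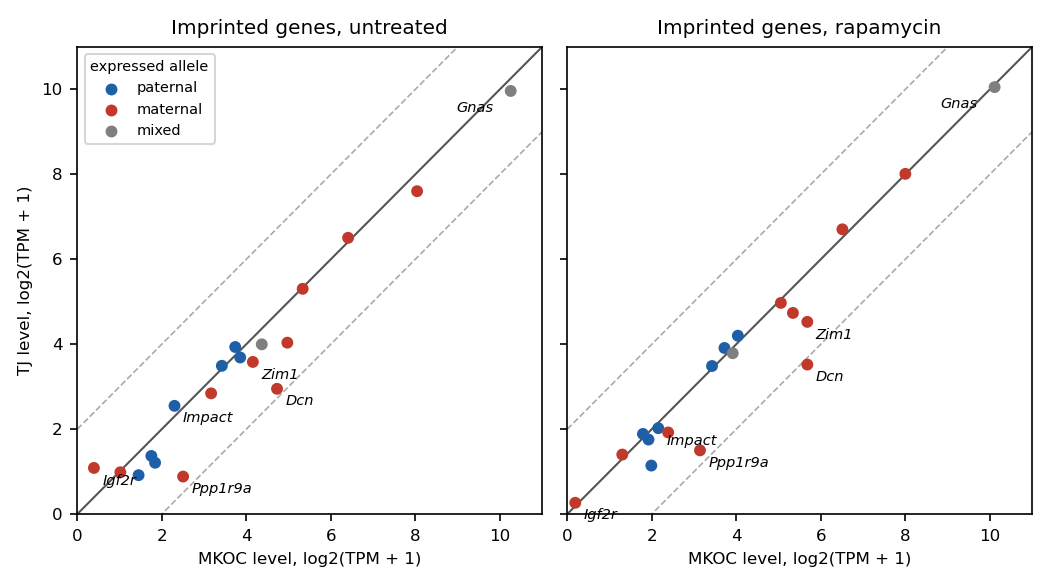
Level in TJ against level in MKOC, as log2(TPM + 1), for the 19 genes with at least 1 TPM in a kidney library, untreated on the left and with rapamycin on the right. The solid line is equality, dashed lines are 4-fold, and each point is 1 gene in a single library per line. *Dcn* and *Ppp1r9a* lie farthest below the solid line in both panels, and *Dcn* crosses the dashed line with rapamycin only.

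A second list of 30 imprinted genes outside the 42 was described in the same way, and 25 were found. In the MEFs, 1 of 12 passing the filter was at least 8-fold higher in the library labelled Tsc2-/- and 0 were lower. It was *Pon3*, a paraoxonase gene of the Peg10-Sgce locus, at 1.02 and 20.9 TPM. With rapamycin, 0 of 10 rose and 3 fell, *Pon2* by 0.61, *Pon3* by 0.53 and *Commd1* by 0.51 on the log2 scale. The median log2 fold changes of this list were 0.71 in the MEFs and -0.23 with rapamycin.

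All 12 listed factors that maintain imprints were found, and 10 passed the filter in the MEFs, 0 of them 8-fold apart. With rapamycin 2 of 10 rose. *Zfp57*, whose motif is capitalized above, rose by 0.69 (edgeR adjusted p = 0.0152) and *Arid4b*, a chromatin factor, by 0.36 (edgeR adjusted p = 0.027). *Hells*, a chromatin remodeler needed for DNA methylation, fell by 0.63 (edgeR adjusted p = 0.00105). Counts of 3 in 10 for both lists are near the background of 34.9%.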

How the data were processed

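RNA was measured in 6 libraries (TruSeq stranded poly(A)). The authors trimmed reads with Trimmomatic 0.32 and ran kallisto (version not given in the sources used here); the methods name a human build, but the identifiers are mouse. The deposited table of the authors holds estimated counts and TPM for 88198 transcripts. The authors' deposited ratio (a fold change of TPM between the MEF libraries, 1 per transcript) was used for its gene symbols only. Both units were summed per symbol. Counts of the 1006 transcripts with no symbol, 0.372% to 0.468% of a library, were left out, and the first symbol was kept for 8 transcripts with a pair. Several sums rest on 1 transcript (*Usp29*, *Impact*, *Ube3a* and *Gab1* among them). Positions are GENCODE M21 (GRCm38), promoters RefSeq GRCm38.p6.

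In the MEFs and between kidney lines, folds used TPM with 1 added, over genes with at least 1 TPM in 1 or more of the libraries compared, at 8-fold and 4-fold, the latter in both pairs. For rapamycin, summed estimated counts were rounded and tested with edgeR 4.0.16 (filterByExpr, TMM, quasi-likelihood, line as covariate, Benjamini-Hochberg adjustment over all genes, 0.05) in R 4.3.3. DESeq2 1.42.0 and limma 3.58.1 gave alternatives. The labels pair libraries by line, and deviations from the treatment means of libraries of 1 line correlated at r = 0.60 over 12952 genes. P-values rest on how far the rapamycin change differs between the 2 lines, with a spread estimated partly from all genes. A floor of 3 counts, Wilson or ratio intervals (95%) and counts per library give the precision, for counting error only. The scripts were tested on simulated data. Every gene of the list is accounted for, with values where it reached 1 TPM. The members and lists were chosen with earlier results of these data known.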

Additional observations from a re-analysis of the deposited data

Results flagged for a closer look

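*Peg3* and *Gnas* moved in opposite directions with rapamycin in the 2 kidney lines. The *Peg3* ratio of depth-scaled counts, rapamycin over untreated, was 1.25 in MKOC (95% counting interval 1.08 to 1.44) and 0.751 in TJ (0.615 to 0.916). The *Gnas* ratio was 0.899 in MKOC (0.885 to 0.913) and 1.06 in TJ (1.04 to 1.08). Each line has 1 library per treatment and the intervals hold counting error only, so the difference between the lines was not tested.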

How the results depend on the processing

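In the MEFs, adding 5 TPM left 4 of the 8 genes at 8-fold (*Igf2*, *Mest*, *Peg10* and *Dcn*), scaling to a median ratio of 1 left 6 (without *Peg3* and *Cdkn1c*), and adding 0.1 TPM gave 12, 10 higher and 2 (*Mkrn3* and *Peg12*) lower. Adding 0.5 TPM gave 10, depth-scaled counts 9, no filter 8 and a fold of 4 gave 10. With rapamycin, the fit without the line as a block called 1 of the 9 genes (1275 of all genes, in place of 4526). DESeq2 called 6 (without *Ube3a*, *Phlda2* and *Igf2r*), limma on log2(TPM + 1) called 7, of which 6 were among the 9 (without *Ube3a*, *Igf2r* and *Inpp5f*, and with *Nnat*), no filter gave 10 and the other scalings 9. The share of all genes that passed was 23.6% in DESeq2 and 28.0% in limma. Between the lines, adding 0.1 TPM gave 1 gene (*Ppp1r9a*) and a fold of 2 gave 2, while the other alternatives gave 0. No called value changed sign under these alternatives or in 1 line alone, the latter being nearly fixed by the choice of genes that passed with 2 lines. The cause of these differences was not tested. Low counts limit *Igf2*, *Igf2r*, *Phlda2*, *Nnat* and *Slc22a18* in the kidney lines.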
